A study of Mus musculus with 20 samples.

Results

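The immediate-early transcription factors examined here are *Fos*, *Fosb*, *Jun*, *Junb*, *Atf3*, *Egr1*, *Egr2*, *Egr3*, *Ier2* and *Nr4a1*. They were chosen by symbol from a table of normalised read counts, and all 10 were found among its 16810 genes. RNA-Seq had been carried out on eGFP-high cells sorted by flow cytometry from the thoracic spinal cord of adult male CX3CR1+/eGFP mice, in which 1 allele of *Cx3cr1* carries the fluorescent reporter. Non-injured mice (NI) gave 3 libraries. Mice with a lateral hemisection (HS) gave 8 libraries, 3 of them from 72 h, 2 from 1 week and 3 from 2 weeks post-lesion, and those with a full transection (FT) gave 9, with 3 per stage. All 20 libraries, NI included, shared the reporter genotype, the enzymatic dissociation of the tissue and the sort. The reporter also marks blood monocytes, so the gate cannot separate macrophages that entered the cord from resident microglia. RNA came from more mice than there are libraries, a library may therefore pool mice, and p-values measure the spread between libraries.

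Immediate-early genes are transcribed within minutes of a stimulus without new protein synthesis, through kinases of the MAPK and PKA pathways acting on factors such as SRF, ELK1 and CREB that already sit in the nucleus. Fos and Jun proteins pair through leucine zippers to form AP-1, while the Egr proteins bind GC-rich DNA through zinc fingers, and their transcripts decay quickly. In microglia these genes are known to be switched on by inflammatory stimuli, and also by tissue dissociation and cell sorting, which all of these cells had undergone.

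RefSeq promoter windows, which run from 250 bases before to 50 bases after a transcription start on GRCm38.p6, were held for 7 of the 10 genes, 5 windows for *Egr2* and 1 for each of the others. They are shown because the genes varied together from library to library, and for the members on which the results turn. For *Egr2* the window with the most motif matches, GGGCGG not counted, was taken, the first of those that tied. The 250 bases upstream of the start are given, 5′ to 3′ on the strand of the gene. Capitals mark TGACG or its reverse complement CGTCA, which is the core of the binding site of CREB and ATF factors, and in *Egr2* also a CArG box, the site of SRF, and in *Fos* also TATAAA.
Fos (chr12:85473640-85473889, plus strand): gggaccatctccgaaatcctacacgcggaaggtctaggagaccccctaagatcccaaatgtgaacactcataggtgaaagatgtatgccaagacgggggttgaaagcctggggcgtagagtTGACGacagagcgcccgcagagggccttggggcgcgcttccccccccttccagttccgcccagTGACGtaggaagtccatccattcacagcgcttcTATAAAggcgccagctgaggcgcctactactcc
Jun (chr4:95052223-95052472, minus strand): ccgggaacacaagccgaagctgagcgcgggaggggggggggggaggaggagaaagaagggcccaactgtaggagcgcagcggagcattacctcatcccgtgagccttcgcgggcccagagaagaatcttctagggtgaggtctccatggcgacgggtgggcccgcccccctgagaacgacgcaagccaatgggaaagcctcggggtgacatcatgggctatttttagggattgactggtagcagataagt
Atf3 (chr1:191183334-191183583, minus strand): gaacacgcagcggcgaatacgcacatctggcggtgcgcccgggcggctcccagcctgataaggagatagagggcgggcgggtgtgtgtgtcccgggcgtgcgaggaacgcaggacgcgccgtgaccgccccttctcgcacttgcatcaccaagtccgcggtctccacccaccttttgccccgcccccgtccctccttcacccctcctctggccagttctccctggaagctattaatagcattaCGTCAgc
Egr2 (chr10:67537619-67537868, plus strand): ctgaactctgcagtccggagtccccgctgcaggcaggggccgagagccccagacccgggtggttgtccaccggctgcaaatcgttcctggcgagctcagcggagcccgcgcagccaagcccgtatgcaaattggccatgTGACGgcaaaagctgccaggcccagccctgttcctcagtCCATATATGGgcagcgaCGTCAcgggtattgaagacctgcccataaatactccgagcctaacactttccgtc
Nr4a1 (chr15:101266596-101266845, plus strand): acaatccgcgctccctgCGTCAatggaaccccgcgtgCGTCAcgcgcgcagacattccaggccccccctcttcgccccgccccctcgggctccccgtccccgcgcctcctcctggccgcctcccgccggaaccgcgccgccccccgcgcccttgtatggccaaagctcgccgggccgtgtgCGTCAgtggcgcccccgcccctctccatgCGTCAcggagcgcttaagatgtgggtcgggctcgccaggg

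Searched on both strands over the whole of every window a gene had, TGACG was present in 6 of the 7 genes (*Jun* was the exception) and in 23.0% of 26994 genes with a window. In *Egr2* it was in 3 of the 5 windows, several of which overlap. The CArG box was matched in 1 gene, *Egr2* (4 of its 5 windows), and in 1.81% of all genes. The full-length CREB site TGACGTCA, which contains TGACG, was matched in 0 of the 7 genes (2.03% of all genes), and the AP-1 site TGANTCA likewise in 0 (8.98%). GGGCGG, bound by SP1, was present in 6 genes (38.2% of all genes) and TATAAA in 2, *Fos* and *Junb* (15.7%). With 5 windows, *Egr2* had more room for a match than most genes. Such matches describe letters in a window and were not tested against the expression data.

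The values are read counts in CPM, scaled to the library size and its edgeR factor, and each is a whole multiple of what 1 read is worth. Between 3.87 and 34.1 mega-reads (M) per library lay on the 16810 genes. Fold changes are differences of log2 (CPM + 0.5) between group means, and a gene was called when the limma p-value, adjusted over 16810 genes, was below 0.05 and the change was at least 2-fold. Every injured group was compared with the same 3 NI libraries, so those 6 comparisons are not independent of each other. All 10 microglial markers looked at, *Tmem119* and *P2ry12* among them, were detected, with summed levels from 18503 to 38940 CPM per library. Markers of monocytes and macrophages summed to 60.0 to 73.3 CPM in NI and 308 to 1258 CPM after injury. In bulk RNA, fewer cells of a type and less RNA per cell cannot be told apart.

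**Figure D1:**
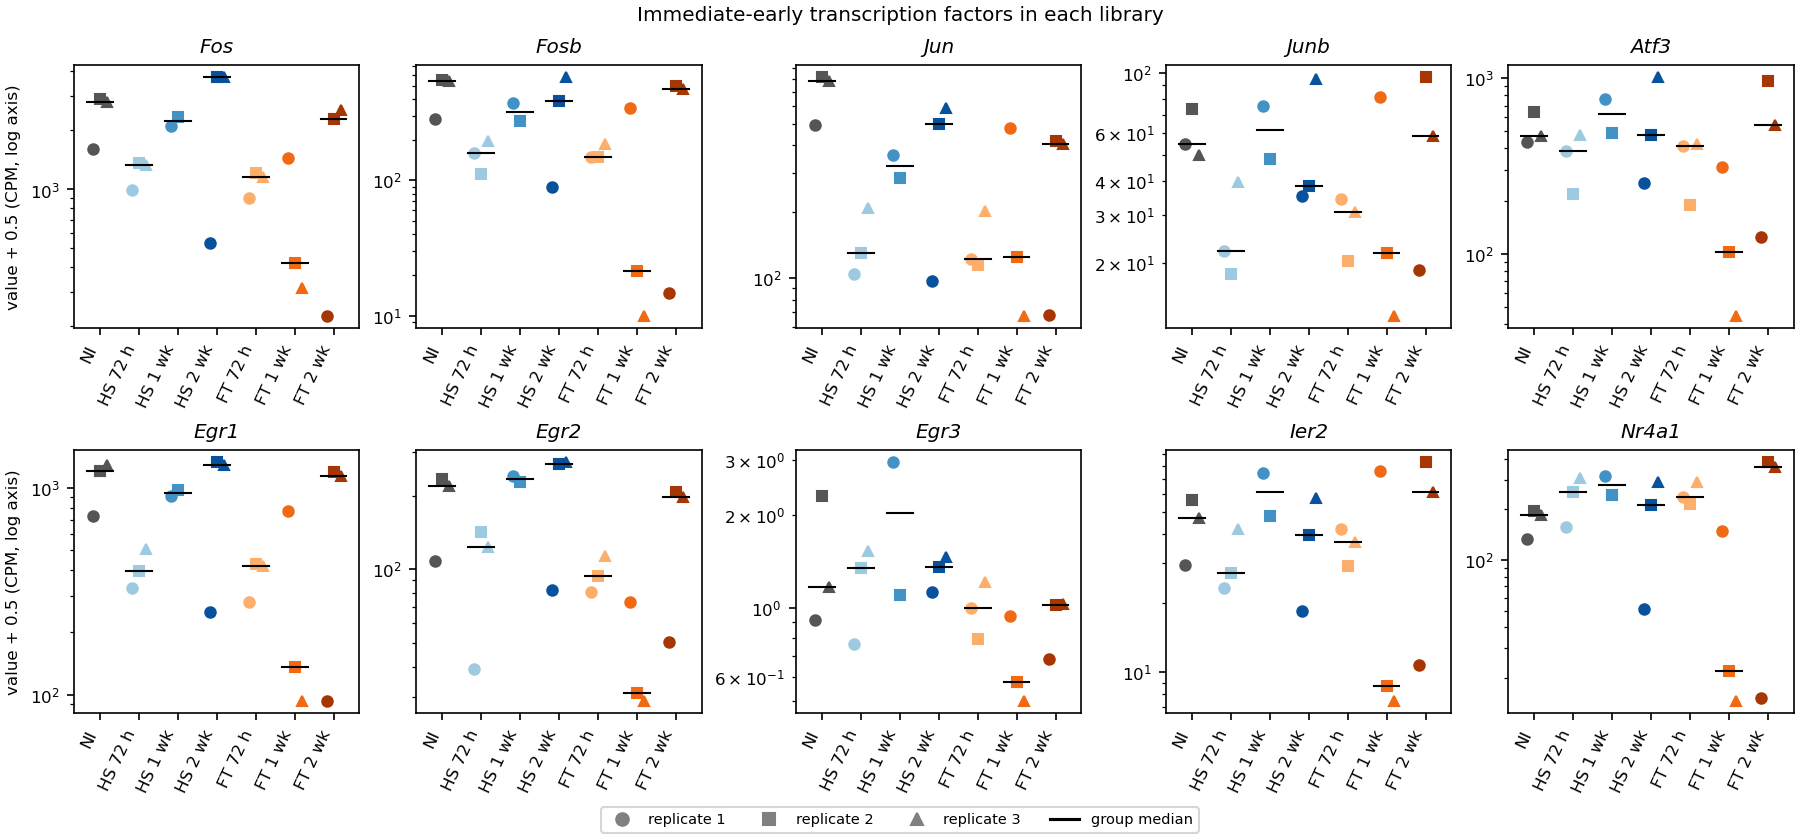
Level of each of the 10 genes in each of the 20 libraries, as CPM + 0.5 on a log axis with its own range in each panel. Symbols give the replicate number, colours the group and black lines the group median. In most panels HS 2 weeks replicate 1 and FT 2 weeks replicate 1 lie far below the rest of their group. FT 1 week replicates 2 and 3 lie far below replicate 1 of that group.

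*Jun*, whose product is the main partner of Fos proteins in AP-1 (chr4:95049034-95052222, minus strand, GRCm38), was lower at 72 h after both lesions. In NI its level was 492, 814 and 779 CPM in replicates 1, 2 and 3. At 72 h it was 104, 129 and 208 CPM after HS and 122, 115 and 201 CPM after FT. Every 72 h library lay below every NI library, and the 2 lesions overlapped each other. The means were 695 ± 177 CPM (SD, n = 3) in NI, 147 ± 54.6 CPM (SD, n = 3) at 72 h after HS and 146 ± 47.8 CPM (SD, n = 3) at 72 h after FT. *Jun* fell by 2.26 on the log2 scale in each case, with a standard error of 0.68 (limma adjusted p = 0.0171 after HS and 0.0187 after FT). The call is close to its threshold. After HS the adjusted p of limma was 0.062 and 0.0573 when NI replicates 2 and 3 were left out in turn, and 0.0713 and 0.0522 when the first and second 72 h libraries were. After FT it was 0.0671 and 0.0611 without NI replicates 2 and 3, and 0.0581 and 0.0592 without FT 72 h replicates 1 and 2. Over these omissions the log2 fold change stayed between -2.20 and -2.04.

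Of the later groups, HS had *Jun* levels of 360 and 284 CPM at 1 week and of 96.7, 500 and 590 CPM at 2 weeks. FT had 477, 124 and 66.7 CPM at 1 week and 67.4, 419 and 407 CPM at 2 weeks. Every library of HS 1 week, FT 1 week and FT 2 weeks lay below the lowest NI library, while HS 2 weeks overlapped NI. *Jun* was not called at 1 or 2 weeks. Its log2 fold changes from NI were -1.08 and -1.15 at 1 and 2 weeks after HS, and -2.10 and -1.58 after FT (limma adjusted p from 0.0702 to 0.637).

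*Fos*, the other founding subunit of AP-1, and *Fosb*, its close relative, were low at 72 h in every library but were not called. *Fos* was at 1604, 2879 and 2806 CPM in NI, at 995, 1362 and 1328 CPM at 72 h after HS, and at 909, 1208 and 1161 CPM at 72 h after FT. Neither 72 h group overlapped NI. The log2 fold changes of *Fos* were -0.95 ± 0.74 (SE) after HS and -1.11 ± 0.74 after FT, with limma adjusted p = 0.35 and 0.287. Later libraries of *Fos* stood far apart within their groups, except at 1 week after HS. After HS it was at 2119 and 2332 CPM at 1 week and at 531, 3731 and 3738 CPM at 2 weeks. After FT it was at 1445, 420 and 314 CPM at 1 week and at 225, 2281 and 2552 CPM at 2 weeks. The 2 weeks groups thus held both the lowest library of all, FT replicate 1, and the highest, HS replicate 3.

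*Fosb* was at 281, 548 and 540 CPM in NI, at 157, 110 and 195 CPM at 72 h after HS and at 148, 147 and 186 CPM at 72 h after FT, again without overlap. Its log2 fold changes were -1.54 ± 1.08 (SE) after HS and -1.45 ± 1.08 after FT (limma adjusted p = 0.297 and 0.346). At 1 week after FT it was at 343, 21.1 and 9.46 CPM, so replicate 1 was within the NI range and the other two were below every NI and 72 h library. At 2 weeks it was at 14.2, 497 and 468 CPM after FT and at 88.9, 383 and 576 CPM after HS, with replicate 1 the low library each time.

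*Junb* encodes a Jun protein that transactivates more weakly than c-Jun. It was at 54.2, 73.4 and 49.5 CPM in NI, at 21.6, 17.7 and 39.2 CPM at 72 h after HS and at 33.9, 19.9 and 30.5 CPM at 72 h after FT. Both 72 h groups lay below NI without overlap, with log2 fold changes of -1.22 ± 0.56 (SE) and -1.07 ± 0.56 (limma adjusted p = 0.108 and 0.169). Its later values ranged from 34.9 to 94.7 CPM after HS and from 12.3 to 95.8 CPM after FT.

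*Atf3*, a stress-induced bZIP factor that pairs with Jun proteins (chr1:191170296-191218039, minus strand, GRCm38), was lower at 1 week after FT. In NI its level was 435, 641 and 470 CPM, and at 1 week after FT it was 314, 103 and 43.8 CPM. All FT 1 week libraries lay below NI, replicate 1 by the least. The means were 515 ± 110 CPM (SD, n = 3) in NI and 154 ± 142 CPM (SD, n = 3) at 1 week after FT. *Atf3* fell by 2.17 on the log2 scale with a standard error of 0.64 (limma adjusted p = 0.0441). The count tests gave a log2 fold change of -1.75 without a call (adjusted p = 0.102 by the quasi-likelihood test of edgeR and 0.0893 by DESeq2). Omission of single libraries also ended the call, with limma adjusted p = 0.0846, 0.17 and 0.1 without NI replicates 1, 2 and 3, and 0.113 and 0.299 without FT 1 week replicates 2 and 3. *Atf3* stood at 386, 218 and 474 CPM at 72 h after HS and at 414, 190 and 422 CPM at 72 h after FT. At 1 and 2 weeks after HS it ranged from 255 to 1015 CPM, and at 2 weeks after FT it was at 124, 971 and 540 CPM, so that only the FT 1 week and FT 72 h groups were free of overlap with NI.

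*Egr2*, a zinc-finger factor best known from myelinating Schwann cells and also expressed by macrophages (chr10:67535475-67542188, plus strand, GRCm38), was lower at 1 week after FT as well. It was at 107, 233 and 218 CPM in NI and at 73.1, 30.6 and 28.3 CPM at 1 week after FT. The groups did not overlap. The means were 186 ± 68.6 CPM (SD, n = 3) and 44.0 ± 25.2 CPM (SD, n = 3), and *Egr2* fell by 2.13 on the log2 scale with a standard error of 0.54 (limma adjusted p = 0.0165). The quasi-likelihood test of edgeR and DESeq2 also called it. The limma adjusted p was 0.0942 and 0.0753 without NI replicates 2 and 3, and 0.0696 and 0.1 without FT 1 week replicates 2 and 3, where the log2 fold change lay between -1.97 and -1.88. In the other groups *Egr2* overlapped NI. It was at 38.4, 141 and 123 CPM at 72 h after HS, at 241 and 226 CPM at 1 week after HS and at 81.6, 267 and 273 CPM at 2 weeks after HS. After FT it was at 79.9, 93.5 and 113 CPM at 72 h and at 50.1, 206 and 196 CPM at 2 weeks.

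*Egr1*, the zinc-finger factor induced most widely by growth factors and depolarisation, was at 728, 1203 and 1294 CPM in NI. At 72 h it was at 326, 398 and 504 CPM after HS and at 282, 431 and 418 CPM after FT, below NI without overlap. The log2 fold changes were -1.37 ± 0.78 (SE) and -1.49 ± 0.78 and were not called (limma adjusted p = 0.199 and 0.174). At 1 week it was at 911 and 983 CPM after HS and at 772, 135 and 92.4 CPM after FT. At 2 weeks it was at 250, 1330 and 1286 CPM after HS and at 92.3, 1190 and 1145 CPM after FT. The low libraries were the same as for *Fos*. *Egr3*, a relative induced mainly in neurons and lymphocytes, had only 0 to 18 reads per library and ranged from 0 to 2.45 CPM. Its 0 reads in FT 1 week replicate 3 allow a level of up to 0.237 CPM (3 reads, counting error only). The limma fit of all libraries called it in no comparison on the deposited scale, and at this depth its levels are imprecise.

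*Ier2*, a short nuclear protein of the same early response, was at 29.0, 56.4 and 46.8 CPM in NI and from 22.8 to 41.9 CPM in the 6 libraries at 72 h, which overlapped NI. At 1 week it was at 73.8 and 47.9 CPM after HS and at 75.4, 8.20 and 6.94 CPM after FT. At 2 weeks it was at 17.9, 39.1 and 57.2 CPM after HS and at 10.2, 82.2 and 60.6 CPM after FT. Within FT 1 week and within FT 2 weeks, libraries above the NI range thus stood beside libraries below it.

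*Nr4a1*, an orphan nuclear receptor that restrains inflammatory gene expression in myeloid cells, did not share the low values at 72 h. It was at 132, 196 and 186 CPM in NI, at 156, 254 and 307 CPM at 72 h after HS and at 238, 216 and 290 CPM at 72 h after FT. The FT 72 h group lay above NI without overlap, but neither change was called (log2 fold change 0.45 ± 0.89 (SE) after HS and 0.54 ± 0.89 after FT, limma adjusted p = 0.734 and 0.691). The sign after HS depended on the scaling, with a log2 fold change of -0.05 after quantile scaling and -0.06 with columns scaled to 1 total. At 1 week *Nr4a1* was at 316 and 241 CPM after HS and at 148, 21.7 and 14.0 CPM after FT. At 2 weeks it was at 50.8, 212 and 289 CPM after HS and at 14.8, 380 and 355 CPM after FT, so that replicate 1 stood far below the others.

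**Figure D2:**
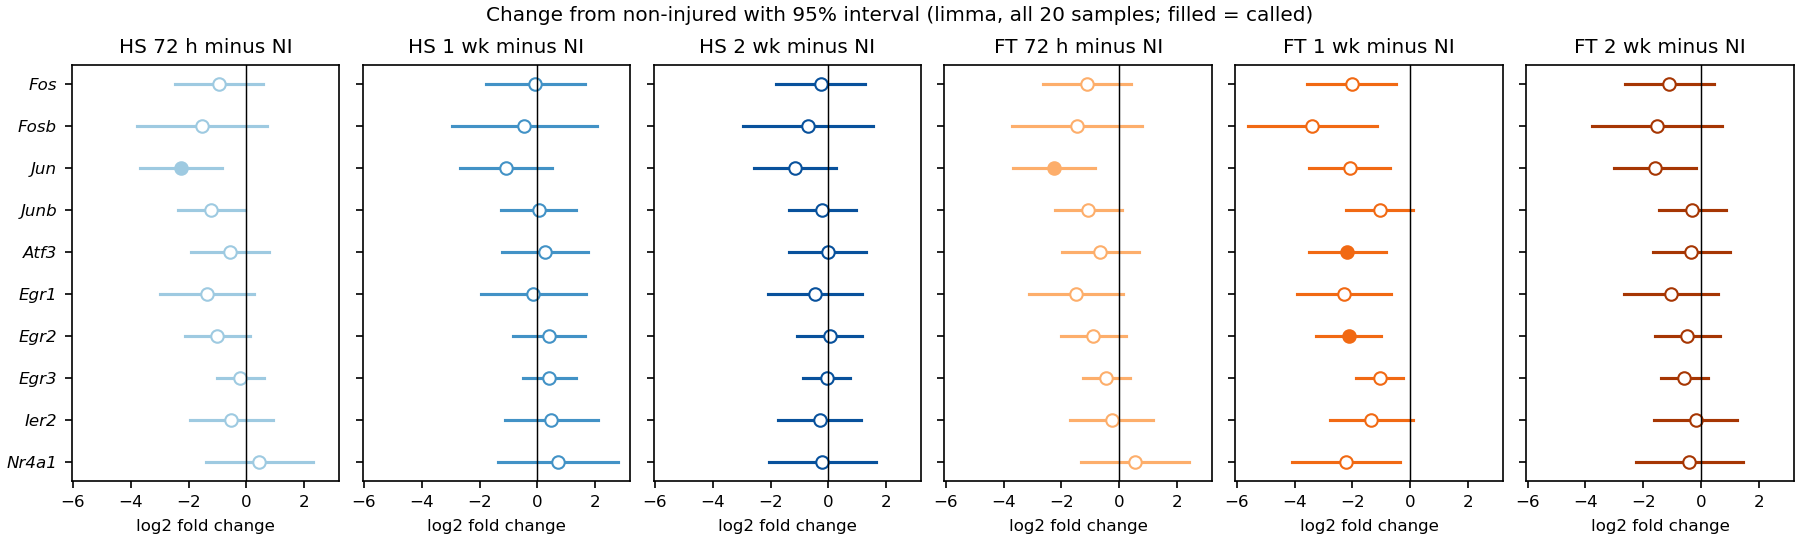
Log2 fold change of the 10 genes from NI (points) with its 95% interval (bars) in the limma fit of all 20 libraries, 1 panel for each injured group. Filled points were called, which were *Jun* at 72 h after HS and FT, and *Atf3* and *Egr2* at 1 week after FT. Intervals span 0 for most genes in every panel except FT 1 week, where only those of *Junb* and *Ier2* do. At 72 h they exclude 0 for *Jun* and *Junb* after HS and for *Jun* after FT.

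At 72 h, 1 of the 10 genes was called lower and 0 higher after each lesion, against 4.31% of all genes called lower after HS and 4.09% after FT. The median log2 fold change of the 10 genes was -0.98 after HS and -0.98 after FT, beside -0.11 and -0.09 over all genes. All members of the list but *Nr4a1* had fold changes below 0 in both, although *Egr3* after HS turned to 0.12 under quantile scaling. After HS 5 genes lay below NI without overlap (*Fos*, *Fosb*, *Jun*, *Junb* and *Egr1*), a pattern shown by 24.9% of all genes, and after FT 6 did (the same with *Atf3*), beside 22.7% of all genes. *Nr4a1* lay above NI after FT, as did 22.2% of all genes. The spread used in these tests was shared by all groups. When only the NI and 72 h libraries were fitted, a choice made after seeing the data, 4 genes were called lower after HS (*Jun*, *Junb*, *Fosb* and *Egr1*) and 5 after FT (the same with *Fos*), where that fit called 4.75% and 4.38% of all genes lower.

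At 1 week after FT 2 genes were called lower, *Egr2* and *Atf3*, against 1.20% of all genes, and 4 lay below NI without overlap (*Fos*, *Jun*, *Egr2* and *Atf3*; 10.1% of all genes). The median log2 fold change was -2.11, beside -0.03 over all genes. The count turned on replicate 1, which was close to NI for most members. Without it all 10 genes were called lower, as were 2.68% of all genes, for example *Fosb* at -4.90 and *Nr4a1* at -3.24 on the log2 scale (limma adjusted p = 0.00265 and 0.0214). Without FT 1 week replicate 2 or 3, or NI replicate 2 or 3, 0 were called, and without NI replicate 1 only *Egr2* was. After HS at 1 week 0 genes were called by limma, edgeR or DESeq2 (2.18% of all genes by limma), and 0 reached an unadjusted p under 0.05 by any of these tools (12.8% of all genes by limma). There *Jun* lay below and *Nr4a1* above NI without overlap, as did 17.1% and 20.2% of all genes.

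At 2 weeks 0 genes were called after either lesion by limma, edgeR or DESeq2, where limma called 3.23% of all genes after HS and 4.88% after FT. The unadjusted p of limma was under 0.05 for 0 genes after HS (16.1% of all genes) and for 1 after FT (19.1% of all genes), *Jun*, which was also the only gene without overlap (13.3% of all genes lay below NI in this way). edgeR and DESeq2 had 0 genes under 0.05. Leaving out the low replicate 1 of either group left the count at 0.

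FT was compared with HS at each stage to ask whether lesion severity mattered. At 72 h the log2 differences, FT minus HS, lay between -0.24 (*Egr3*) and 0.26 (*Ier2*), and 0 genes had an unadjusted p under 0.05 by limma, edgeR or DESeq2 (3.00% of all genes by limma). The 95% interval was widest for *Fosb*, from -2.16 to 2.33, which leaves room for a large difference either way. At 1 week all 10 genes had lower means after FT, from -1.01 (*Jun*) to -2.93 (*Nr4a1*) on the log2 scale. For 8 of them the unadjusted p was under 0.05 by limma, while 4.31% of all genes had such a p, and for 5 by edgeR and 4 by DESeq2. None of the 10 was called by these tools, and limma called 0 of all 16810 genes. *Egr2* had the smallest limma adjusted p, 0.671, at a difference of -2.53 ± 0.60 (SE). Here 6 genes lay below HS without overlap (8.25% of all genes). At 2 weeks the differences lay between -0.84 and 0.12, and 0 genes had an unadjusted p under 0.05 by limma, edgeR or DESeq2 (2.61% of all genes by limma).

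Over time after HS, 8 of the 10 genes were higher in both 1 week libraries than in all 3 libraries at 72 h, *Egr3* and *Nr4a1* excepted, as were 24.8% of all genes. The log2 differences of the 8 were 0.84 (*Atf3*) to 1.41 (*Egr2*). Limma called 0 (6.03% of all genes), with an unadjusted p under 0.05 for 1, *Egr2* (26.8% of all genes), as edgeR had for 1 and DESeq2 for 0. With only these 2 groups in the fit 6 genes were called higher (*Egr1*, *Egr2*, *Fosb*, *Ier2*, *Jun* and *Junb*), as were 2.59% of all genes. After FT, 1 week differed from 72 h by -2.76 ± 0.89 (SE) for *Nr4a1* and -1.51 ± 0.64 for *Atf3*, neither of which was called (limma adjusted p = 0.0751 and 0.189). Of the 10 genes 0 were called (3.44% of all genes), and 3 had an unadjusted p under 0.05 by limma (19.9% of all genes), 2 by edgeR and 1 by DESeq2. *Egr2* and *Nr4a1* lay below 72 h without overlap, as did 10.4% of all genes. Without FT 1 week replicate 1 limma called 4 lower, namely *Atf3*, *Fosb*, *Ier2* and *Nr4a1*, and 2.55% of all genes. From 72 h to 2 weeks limma called 0 of the 10 genes after either lesion, and 4.74% of all genes after HS and 3.81% after FT. The unadjusted p was under 0.05 for 0 of them by limma (25.6% and 19.5% of all genes) and DESeq2, and by edgeR for 1 after HS and 0 after FT.

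The groups were ordered by their medians. FT 1 week had the lowest median for 9 of the 10 genes, all but *Jun*, for which it was FT 72 h. Of the 6 pairs of neighbouring groups in this order, 5 overlapped for 7 genes and all 6 for *Egr3*, *Ier2* and *Nr4a1*. For *Fos* and *Fosb* the pair without overlap was HS 1 week and, below it, HS 72 h.

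The spread between replicates was wide for these genes. The SD of log2 (CPM + 0.5), pooled over the 7 groups, was 1.67 for *Fosb*, 1.38 for *Nr4a1*, 1.20 for *Egr1*, 1.13 for *Fos*, 1.06 for *Ier2* and 1.04 for *Jun*. It was 0.98 for *Atf3*, 0.85 for *Junb*, 0.82 for *Egr2* and 0.52 for *Egr3*. The median over all genes was 0.34, and 9 of the 10 lay above the 98.6th percentile of it, with *Egr3* at the 89.5th. *Fosb*, at the 99.97th percentile, was near the top of the table. Spread differed between groups, since the median SD of the 10 genes was 0.46 in NI, 0.51 at 72 h after HS and 0.29 at 72 h after FT. It was 0.29 at 1 week (n = 2) and 1.16 at 2 weeks after HS, and 1.43 at 1 week and 1.56 at 2 weeks after FT. Over all genes these medians ranged from 0.19 to 0.38.

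**Figure D3:**
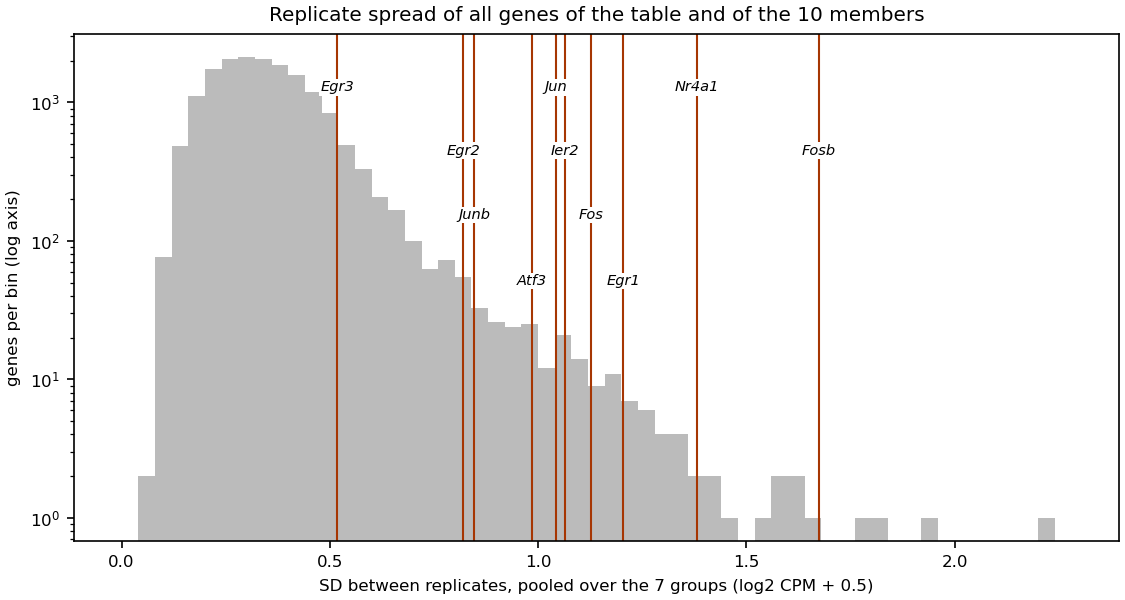
Histogram of the replicate SD of log2 (CPM + 0.5), pooled over the 7 groups, for all 16810 genes (grey bars, log axis), with a line for each of the 10 genes. *Fosb* and *Nr4a1* lie in the far tail at 1.67 and 1.38, and *Egr3* at 0.52 is nearest to the bulk of the genes.

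The members went up and down together within groups. HS 2 weeks replicate 1 and FT 2 weeks replicate 1 were the lowest of their groups for 10 of the 10 genes. In FT 1 week, replicate 1 was the highest and replicate 3 the lowest for all 10. For *Egr3* such ranks rest on few reads, with 4, 4 and 8 in HS 2 weeks and 6, 1 and 0 in FT 1 week (replicates 1, 2 and 3). NI was less dispersed, yet replicate 1 was its lowest library for 9 genes and replicate 2 its highest for 9. At 72 h replicate 3 was the highest library for 8 genes after HS and for 6 after FT.

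**Figure D4:**
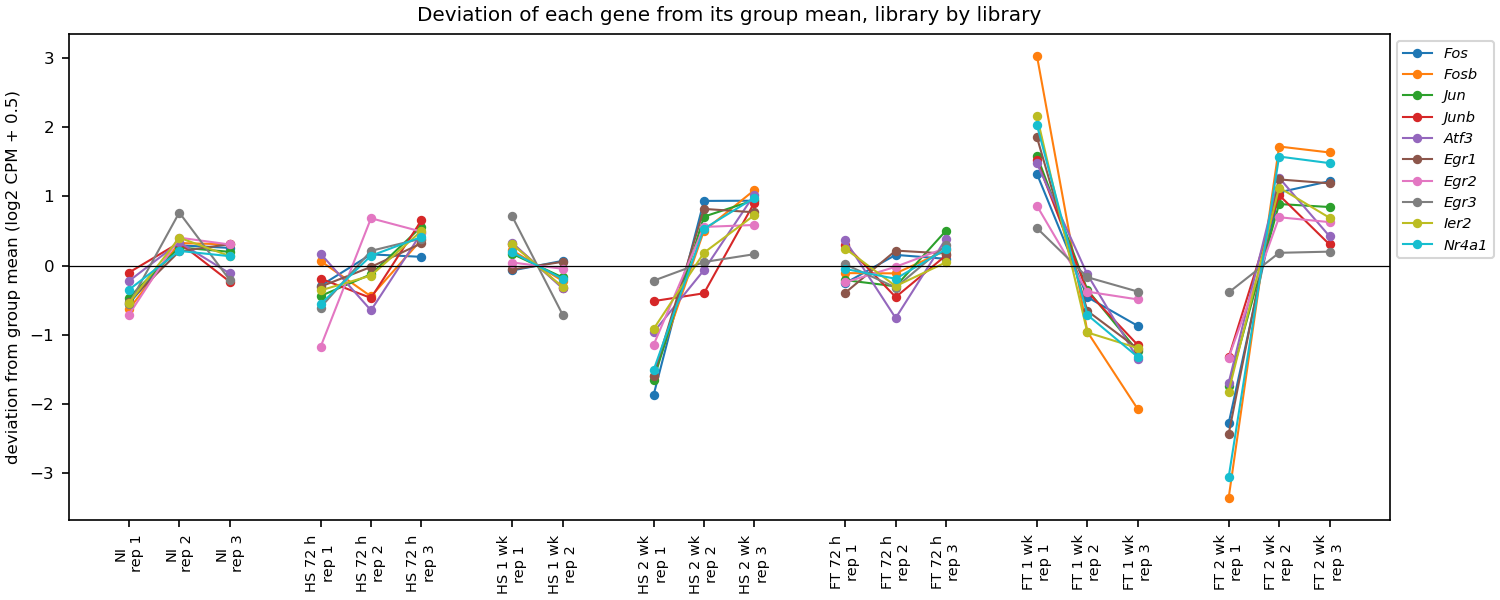
Deviation of each of the 10 genes from its group mean, in log2 (CPM + 0.5), in each of the 20 libraries, with lines joining the libraries of a group. The curves run together in HS 2 weeks, FT 1 week and FT 2 weeks, where deviations reach beyond 1 in either direction, and lie nearer to 0 in NI and at 72 h, *Egr2* in HS 72 h replicate 1 excepted.

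For each gene the deviation from the group mean was set against that of *Fos* over the 20 libraries (9 relations, with p-values by permutation within groups and adjusted over the 9). Pearson's r was 0.982 for *Egr1* (adjusted permutation p = 0.0029) and Spearman's rho 0.961 (0.0051). For *Nr4a1*, *Jun* and *Fosb* r was 0.958, 0.951 and 0.926 and rho 0.922, 0.929 and 0.902 (adjusted permutation p from 0.0034 to 0.0094). *Egr2* and *Ier2* had r of 0.890 and 0.871 and rho of 0.935 and 0.869, with adjusted permutation p from 0.0029 to 0.009. The lowest values were those of *Atf3* (r 0.799, rho 0.711), *Junb* (0.734 and 0.639) and *Egr3* (0.486 and 0.593), whose adjusted permutation p lay between 0.0051 and 0.041. Without HS 2 weeks replicate 1 and FT 2 weeks replicate 1, the libraries farthest out for *Fos*, r ran from 0.477 (*Egr3*) to 0.975 (*Egr1*). The group means still included these 2 libraries, which shifts the other libraries of their groups. These r therefore cannot say whether the relation holds without them. Over the 9 libraries of NI and 72 h alone, a subset taken after seeing the data, r was 0.931 for *Egr1* and 0.834 for *Egr2* but 0.024 for *Junb* and -0.07 for *Atf3*. Among the 36 pairs of genes without *Egr3*, r over all 20 libraries had a median of 0.902 and ran from 0.659 to 0.982.

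Over all 20 libraries, the genes outside the list with the profile most like that of *Fos* were *Dusp1*, a phosphatase that switches off MAP kinases (r 0.977), *Btg2*, an anti-proliferative early gene (0.975), and *Enkur* (0.961), which was low at 0 to 5.80 CPM. For *Egr2* they were *Btg2* (0.937), *Klf6* (0.923) and *Dnajb4* (0.909). For *Atf3* they were the chaperone genes *Dnajb1* (0.924) and *Bag3* (0.893), and *Csrnp1* (0.879). These are the highest of 14042 genes and are given as a description, as the libraries share depth and groups.

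The same behaviour was looked for in other lists of the pathway, which had been written with earlier results of these data known. Of the other immediate-early transcription factors, 14 of 16 were in the table. Against NI 3 were called lower at 72 h after HS (*Jund*, *Klf4* and *Ier5*), 2 at 72 h after FT (*Jund* and *Ier5*) and 1 at 1 week after FT (*Klf6*), beside 4.31%, 4.09% and 1.20% of all genes, and 0 were called higher in any comparison. Between 72 h and 1 week after FT 1 was called lower, *Klf10* (log2 difference -1.11, limma adjusted p = 0.0199; 2.62% of all genes). *Klf4*, a Krüppel-like factor of myeloid cells, was at 261, 393 and 454 CPM in NI and at 51.6, 63.9 and 77.5 CPM at 72 h after HS, without overlap, and fell by 2.49 on the log2 scale (SE 0.84, limma adjusted p = 0.031). *Jund*, the third Jun gene, was at 71.3, 75.4 and 79.0 CPM in NI and at 15.4, 15.3 and 34.4 CPM at 72 h after HS. It fell by 1.88 (SE 0.56, limma adjusted p = 0.016), and *Ier5* fell by 1.66 (SE 0.50, adjusted p = 0.0169). *Klf6* fell by 1.46 at 1 week after FT (SE 0.40, limma adjusted p = 0.0303).

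Of 24 other immediate-early genes and feedback regulators, 1 was called lower at 72 h after HS (*Rhob*, a small GTPase, -1.26), 2 at 72 h after FT (*Gadd45g*, -1.75, and *Arc*, -1.63) and 1 at 1 week after FT (*Cyr61*, -2.34), with limma adjusted p from 0.0296 to 0.0488. The shares of all genes called lower there were 4.31%, 4.09% and 1.20%. One comparison over time had a call in this list, *Nab2* at 2 weeks against 72 h after FT (log2 difference 1.19, limma adjusted p = 0.0482; 1.13% of all genes were called higher). *Arc* and *Cyr61* were low, with means of 2.58 and 4.80 CPM in NI. Of 22 upstream kinases and activating transcription factors, such as *Srf*, *Elk1* and *Creb1*, 0 were called in any of the 13 comparisons by limma, with 8 of 22 at an unadjusted p under 0.05 at 72 h after HS, where 39.3% of all genes had such a p. The sum of these 22 genes ranged only from 1719 to 2218 CPM over the libraries, while that of the 10 immediate-early factors ranged from 588 to 7919 CPM.

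Deviations from the group means followed those of *Fos* with r above 0.8 for 8 of 12 other immediate-early transcription factors and 16 of 23 other early genes and feedback regulators with a mean of at least 1 CPM. This was so for 1 of 22 upstream genes, *Atf4* (r 0.900), and for 1.22% of all genes. *Klf4* (r 0.991), *Dusp1* (0.983), *Btg2* (0.979) and *Nfkbiz* (0.979) were the closest. *Dusp6*, *Nab1* and *Nab2*, which are feedback regulators too, had r of 0.147, 0.292 and 0.078.

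**Figure D5:**
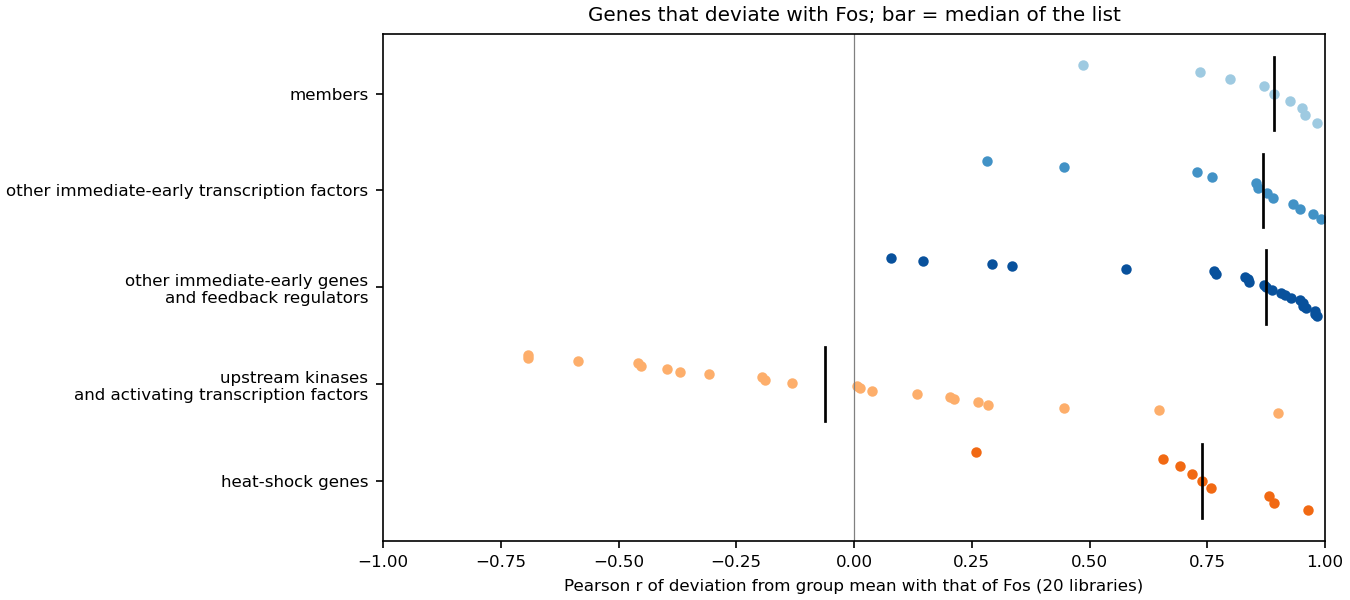
Pearson's r between the deviation of a gene from its group means and that of *Fos*, over 20 libraries, with 1 point per gene (spread vertically for sight only) and a bar at the median of each list. Upstream kinases and factors scatter around 0, with a median of -0.06, while the medians of the lists of other early genes are 0.87.

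Heat-shock genes, which stress and warmth during dissociation are also known to induce, were recorded beside these values. Of 9 genes, 3 were called lower at 72 h after HS, 4 at 72 h after FT and 3 at 1 week after FT, beside 4.31%, 4.09% and 1.20% of all genes. *Hspa1a*, an inducible chaperone, was at 140, 139 and 169 CPM in NI and at 4.69, 29.9 and 40.6 CPM at 72 h after HS, and fell by 3.00 on the log2 scale (SE 0.75, limma adjusted p = 0.00512). *Hspa1b*, whose reads may be shared with the nearly identical *Hspa1a*, fell by 3.22, *Hsph1* by 1.69, and *Dnajb1* fell by 2.37 at 1 week after FT (limma adjusted p from 0.00367 to 0.00842). The deviations of 3 of the 9 followed *Fos* with r above 0.8 (*Hsp90aa1* 0.964, *Hsph1* 0.892 and *Hspb1* 0.881). The part of dissociation or sorting in the early gene levels was not tested.

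Markers of some other cells moved with some of the low libraries, and others did not. At 2 weeks after FT, 7 oligodendrocyte markers summed to 382, 2436 and 1432 CPM in replicates 1, 2 and 3, and 7 neutrophil markers to 8.33, 283 and 78.7 CPM. At 2 weeks after HS the oligodendrocyte sum was 421, 1313 and 1228 CPM, but the neutrophil sum was 109, 81.2 and 31.4 CPM. Replicate 1, low in the early genes, was thus low in oligodendrocyte markers in both groups, and in neutrophil markers after FT but not after HS. The 6 neuron markers detected were scarce. They summed to 39.6 to 74.7 CPM in NI, 16.0 to 39.5 CPM at 72 h after HS and 15.8 to 25.5 CPM at 72 h after FT. The 72 h libraries thus lay below NI, as they did for several early genes, but HS replicate 1 only barely. All later libraries were below NI in the neuron sum too. It was 23.4 and 19.5 CPM at 1 week after HS, where most early genes overlapped NI. At 1 week after FT it was 19.9, 20.6 and 18.5 CPM, while the early genes stood far apart. At 2 weeks the neuron sum was 12.9, 35.7 and 30.8 CPM after HS and 12.9, 30.6 and 18.3 CPM after FT, again lowest in replicate 1. At 1 week after FT the direction was the other, with 986, 1730 and 1810 CPM for oligodendrocyte markers where the early genes were high in replicate 1. There the 10 microglial markers summed to 18503, 38940 and 32438 CPM and 6 endothelial markers to 68.6, 23.4 and 30.1 CPM. At 2 weeks after HS the endothelial sum was 88.6, 114 and 50.4 CPM, so replicate 1 was not the lowest. At 2 weeks after FT it was 38.1, 117 and 91.8 CPM, lowest in replicate 1. None of these oligodendrocyte, neutrophil, neuron and endothelial markers or of the 8 monocyte markers was at 0 in all libraries. Their part in the result was not tested.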

How the data were processed

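Polyadenylated RNA of sorted eGFP-high cells was sequenced in 20 libraries of 7 groups. The authors removed reads with adapters, mapped the rest with TopHat2 2.0.9 to mm10, counted reads per gene with HTSeq 0.5.4p3, kept genes with enough counts in several replicates and normalised with edgeR 3.3.6. The signal that the authors deposited is this normalised count in CPM. Dividing each column by its step gave whole reads for 336200 of 336200 values (tolerance 0.001 step), used for count tests. Strandedness and batches were not given in the sources used here, so reads of overlapping antisense genes cannot be told apart.

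The main test was limma 3.58.1 with an intensity trend on log2 (CPM + 0.5), 7 group means and Benjamini-Hochberg adjustment over 16810 genes. Alternatives were other added values, a filter at 1 CPM in 2 samples, only the groups compared, median-of-ratios, quantile or total scaling, no fold limit, a replicate block, edgeR 4.0.16 and DESeq2 1.42.0 on whole reads, and leaving out each library. Permutations used 100000 draws, two-sided. Depth was 3.87 to 34.1 M reads, and intervals and limits from reads cover counting error only.

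The members and lists were chosen with earlier results of these data known. All 10 members were named in every comparison; from each pathway list, up to 4 genes with the largest change among those called against NI; and the 3 genes most like *Fos*, *Atf3* and *Egr2*. Other genes were named after their values were seen. Single genes of the lists are not all reported here. Gene positions are from GENCODE vM21 on GRCm38 and promoters from RefSeq.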

Additional observations from a re-analysis of the deposited data

How the results depend on the processing

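The direction of every called change was kept under all alternatives run. Counts of called genes out of 10 that moved by more than 1.5 times were as follows. With only the 2 groups compared in the fit, 4 were called at 72 h after HS (4.88% of all genes lower) and 5 at 72 h after FT (4.40%). At 1 week after HS 1 was called, *Jun* (1.54% of all genes lower). Between 72 h and 1 week, 6 were called after HS (2.59% of all genes higher) and 1 after FT, *Nr4a1* (1.84% lower). The count at 1 week after FT, which did not move that far, was 3 (*Fos* beside the 2 reported, 1.13% of all genes lower). With only the NI and 72 h libraries, added after seeing the data, the counts at 72 h were 4 after HS and 5 after FT (4.75% and 4.38% of all genes lower), and the r of *Atf3* with *Fos* turned to -0.069. These fits have fewer samples and another estimate of the spread. With columns scaled to 1 total, the median log2 change of all genes was -0.52 at HS 72 h and -0.32 at FT 1 week. On the deposited scale it was -0.11 and -0.03. Under total scaling the counts were 3 and 2 at 72 h after HS and FT (19.0% and 16.3% of all genes lower). At 1 week after FT the count was 7 (3.99% of all genes lower), and quantile scaling gave 6 (1.44%). The count at 1 week after FT was 1, *Egr2*, by edgeR and by DESeq2, which called 1.32% and 1.54% of all genes lower. Leaving out 1 library at a time gave 0 to 1 genes at 72 h after HS and after FT, 0 to 10 at 1 week after FT, 0 to 4 for FT 1 week against FT 72 h, and 0 to 0 for the other comparisons. The cause of these shifts was not tested.

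Replicate numbers did not clearly pair the libraries. Deviations correlated above 0.1 in 25 of 57 pairs with the same number and in 48 of 114 pairs with other numbers. Of 20 libraries, 9 correlated best with a library of their own number, and whether some of them are paired was not tested. With the replicate block, the count at 1 week after FT was 1, *Atf3* being lost (limma adjusted p = 0.0584), and the other counts stayed the same. *Egr3* is limited by depth, at 18 reads or fewer per library.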
